A study of Mus musculus with 30 samples.

Results

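The optic stalk (OS) was compared along its length, from the distal end next to the optic cup to the proximal end toward the brain. Libraries were chosen by their tissue label alone, and 16 of the 30 libraries of the series were labelled as OS, 6 of them distal, 6 middle and 4 proximal. The other 14 libraries came from the presumptive retinal pigment epithelium (pRPE) and are used only where a gene is set beside that tissue. Each library is Geo-seq, in which a small area of a cryosection is cut out with a laser and its amplified cDNA is sequenced, so that the position of the tissue is kept.

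All libraries were from mouse embryos at embryonic day 12 (E12) with the genotype label Control, which the study's methods describe as littermates without the Dct-Cre transgene. The distal group held 3 dorsal and 3 ventral libraries, the middle group 2 dorsal and 4 ventral libraries, and the proximal group 2 dorsal and 2 ventral libraries. Of the distal libraries 2 were of batch A and 4 of batch B, against 3 and 3 in the middle and 2 and 2 in the proximal OS. Each proximal library was the only one of its dorsal or ventral side in its batch. The methods name 4 control embryos and the labels tie no library to one, so some libraries share an embryo. The paper's supplement names a mouse ID among the details given for each E12 sample, which was not used here. The p-values over libraries given here are too small as far as libraries of one group share an embryo, and can be too large where groups share one.

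The OS is the tube of neuroepithelium that joins the optic cup to the forebrain, and its cells become the astrocytes of the optic nerve around the axons of retinal ganglion cells. The transcription factor Pax2 marks the stalk, and hedgehog signals from the ventral midline of the brain maintain it. Mitf and Otx2 mark the pigment epithelium, and at its distal dorsal edge the stalk is continuous with that epithelium. The comparison asked which genes separate the end of the stalk at the eye from the end at the brain.

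The levels of single genes varied widely between libraries of one position. edgeR's quasi-likelihood test called none of the 5012 genes tested between distal and proximal OS, which is 0% at a log2 fold change beyond 0.58 and a p under 0.05 after Benjamini-Hochberg adjustment. Pax2 and the RNA-binding protein gene Caprin2 had a lower mean level in distal OS and the deubiquitinase gene Usp15 a higher one, but none of them passed the adjusted test. The smallest adjusted p was 0.542. Before adjustment, 264 genes had a p under 0.05 and were higher in distal OS (5.27% of those tested) and 155 were lower (3.09%). Of the same 5012 genes, limma voom called 0, whereas DESeq2 called 574 higher and 201 lower.

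Detected genes, those with at least 1 count, numbered from 1730 to 6769 in the distal libraries (median 3831.5), from 3029 to 9315 in the middle (median 4587) and from 2106 to 4313 in the proximal ones (median 3414). The distal mean was 3876 ± 1834 (SD, n = 6) and the proximal mean 3312 ± 1083 (SD, n = 4). The difference of 564.8 genes was within the spread (exact permutation test over the 210 splits of these libraries, two-sided, p = 0.629, adjusted 0.814 over 9 tests, where 0.00952 is the smallest possible). It was 80.5 genes within batch A and 711.2 within batch B, 1397 genes in the dorsal OS and -267.2 in the ventral OS. Without dorsal distal library 83, which had 6769 detected genes, the difference was -13.8. Thinned to 724603 nuclear counts in each library, the difference was 510.6 genes (two-sided exact permutation p = 0.686).

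Middle libraries had the most detected genes on average, 5079 ± 2218 (SD, n = 6), and the comparisons with them leaned the same way. Of the 5012 genes, 603 were higher in middle than in proximal OS at an unadjusted p under 0.05 (12.0%) and 64 were lower (1.28%), while 61 were higher in distal than in middle OS (1.22%) and 300 were lower (5.99%). edgeR called 0 genes in both comparisons, and limma voom called 0 between distal and middle and 1, Aebp1, between middle and proximal OS. Taken over all genes tested, the median log2 fold change was 1.12 for middle over proximal OS, -0.65 for distal over middle and 0.35 for distal over proximal. With the log2 number of detected genes as a covariate these medians became -0.0024, 0.24 and 0.12. The 0.35 was 0.0414, 0.0579 and 0.175 without ventral distal library 88, dorsal distal library 83 and dorsal proximal library 65, and 0.55, 0.75 and 1.26 without ventral distal library 68, dorsal proximal library 5 and ventral proximal library 90. Over the other filters, scalings, models and batches it ran from 0.0392 within batch A to 0.74 with the replicate block of library numbers.

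Total counts ranged from 1421918 to 5400977 over the 16 libraries, and 37.1% to 53.5% of the counts were on mitochondrial genes. The mitochondrial share was 43.7% ± 5.07 in distal (SD, n = 6) and 46.6% ± 5.72 in proximal libraries (SD, n = 4; two-sided exact permutation p = 0.4, adjusted 0.74). Within batch B the sign of that difference turned, to 0.207 percentage points. Total counts did not separate the groups either (two-sided exact permutation p = 0.724, adjusted 0.814).

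**Figure D1:**
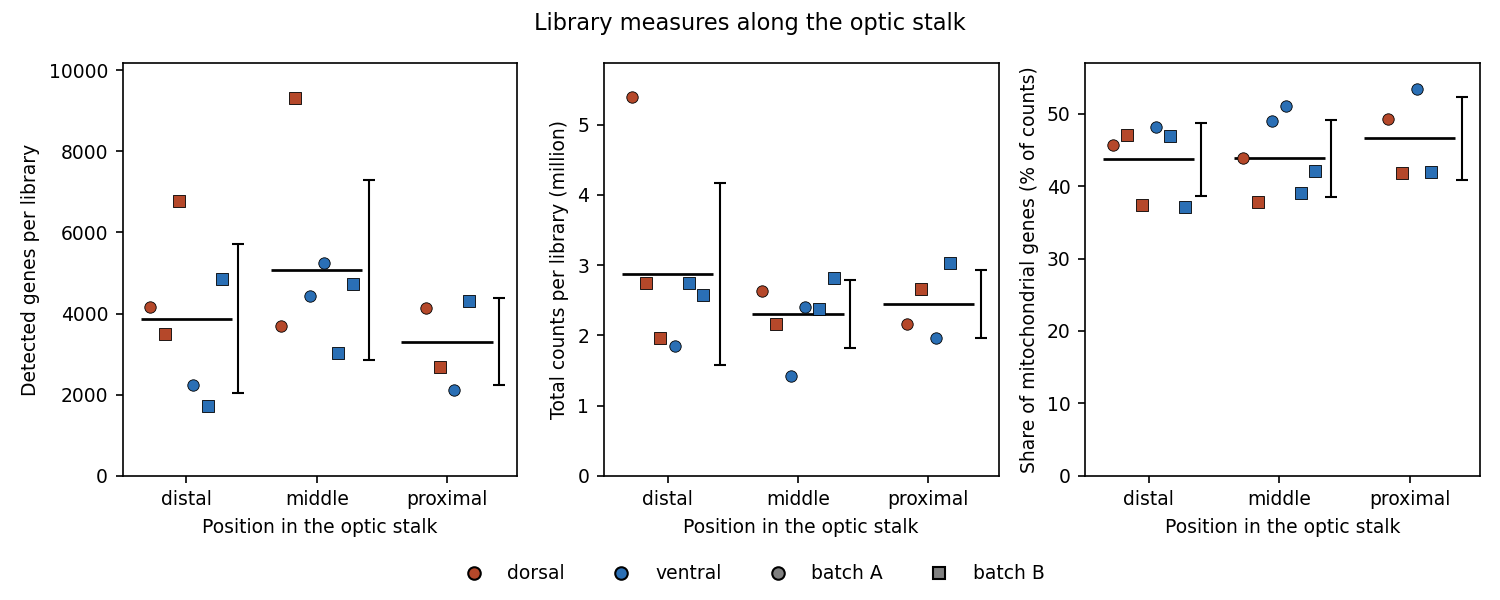
Detected genes, total counts and the mitochondrial share of counts in the 16 OS libraries, by position. Each point is a library, coloured by dorsal or ventral side and shaped by batch, and the line and bar are the mean and SD of the position. Distal values enclose or overlap the proximal ones in all 3 measures, and the highest number of detected genes, 9315, was in a dorsal middle library.

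Most of the genes past an unadjusted p of 0.05 had no count at one end of the stalk. Of the values of the tested genes, 50.1% were 0 in distal, 41.4% in middle and 55.0% in proximal libraries. No count was found in any of the 4 proximal libraries for 940 of the tested genes and in any of the 6 distal libraries for 203, a contrast that also carries the unequal number of libraries. Of the 264 genes higher in distal OS at an unadjusted p under 0.05, 235 had no count in the proximal libraries, and the median number of distal libraries with a count was 3 of 6. Of the 155 lower genes, 90 had no count in the distal libraries. In these sections fewer cells with a transcript and less RNA per cell cannot be told apart.

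Levels are given below as CPM, counts scaled to a library of 1000000 counts after TMM normalization over the 16 libraries, with dorsal values first. The genes named first are the 10 in each direction with the smallest unadjusted p among the 2532 tested genes that had a count in at least 8 of the 16 libraries. None of them passed the adjusted edgeR test, and their levels are descriptions. With DESeq2, 18 of these 20 genes had an adjusted p under 0.05, beside 775 genes called among all 5012 tested. The 20 were chosen by p on the same counts, so the 18 are no separate support.

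Among the genes higher in distal OS, Usp15 had counts in all 6 distal libraries. Usp15 (chromosome 10, 123105006 to 123197281 in GRCm38, by RefSeq) encodes a protease that removes ubiquitin from proteins. Its levels were 2350, 208 and 1030 CPM in the dorsal distal and 1010, 2690 and 905 CPM in the ventral distal libraries, against 11.9 and 0 in the dorsal proximal and 418 and 90.1 in the ventral proximal ones. Only the lowest distal library, at 208 CPM, fell below the highest proximal one. The middle libraries held 430 to 4270 CPM and so lay with the distal ones. The ratio of the distal to the proximal mean was 10.5, or 40.1 without ventral proximal library 40 (log2 fold change 4.61, edgeR adjusted p = 0.542, DESeq2 adjusted p = 0.0087). The dorsal distal libraries lay further above the dorsal proximal ones than the ventral ones did, but the difference between both sides did not pass (edgeR adjusted p = 0.843). In the pRPE 14 of 14 libraries held Usp15, with a median of 633 CPM on a scale set over all 30 libraries.

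Mrtfa, which encodes a coactivator of serum response factor that responds to actin, was the other gene of this direction found in all 6 distal libraries. Its levels were 73.6, 70.2 and 75.6 CPM dorsally and 92.7, 47.2 and 12.6 CPM ventrally, and no proximal library had a count. Distal and proximal libraries did not overlap. The middle libraries were divided, with 16 and 14.9 CPM in the dorsal libraries, 98.4 CPM in ventral library 39 and no count in the other 3. With a limit of 3 counts per proximal library, the distal mean was at least 48.4-fold higher, and at least 43.6-fold higher when ventral distal library 38 was left out (edgeR adjusted p = 0.542, DESeq2 adjusted p = 2.19e-19). This bound and those below cover counting error only. A 0 in these libraries cannot be read as absence, so they set no lower limit on the difference in the tissue. Mrtfa (chromosome 15, 81012281 to 81190736) overlaps Sgsm3 on the opposite strand, and the sources used here do not say whether reads were counted by strand.

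Of the other 8 genes of this direction, 7 had no count in any proximal library. Epha7, an ephrin receptor known for guiding axons and cells in the developing brain, was at 17.6, 96.8 and 1400 CPM dorsally and at 0, 0 and 188 CPM ventrally in distal OS. Leaving out dorsal distal library 83 lowered its bound from at least 221-fold to at least 47.2-fold. Middle libraries held Epha7 in 4 of 6, at 89.8 and 43.0 CPM dorsally and at 30.9 and 120 CPM ventrally, so that it was counted on both sides of distal and middle OS and in no proximal library.

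Rngtt, the enzyme that caps new messenger RNA, was another gene of which 1 library carried most of the distal mean. It was at 1300 CPM in ventral distal library 38, at 186 in library 88 and at no more than 0.872 CPM in the other 4 distal libraries, and its bound fell from at least 193-fold to at least 29.3-fold without library 38. Middle libraries held Rngtt in 5 of 6, at 101 to 323 CPM. The level in the middle was thus the steadier one.

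The glycine transporter gene Slc6a5 was counted in 4 of 6 distal libraries at 60.2 to 433 CPM, and the proprotein convertase gene Pcsk5 in 5 at 9.59 to 261 CPM. The interferon-induced GTPase gene Gbp7 was counted in 4 distal libraries at 24.7 to 281 CPM. Tle5, which encodes a short relative of the Groucho corepressors, was counted in 4 at 27.4 to 315 CPM, and the long noncoding RNA Gm35867 in 4 at 25 to 190 CPM. Without the 1 library that raised each of them most, the bounds of these 5 genes were between 22.7-fold and 52.1-fold. Map2k7, a kinase that activates JNK, was at 707, 171 and 333 CPM in the dorsal and at 0, 0 and 168 CPM in the ventral distal libraries, and only 1 proximal library had a count, at 6.50 CPM.

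Caprin2 had the smallest unadjusted p of all tested genes. It encodes an RNA-binding protein that also acts in WNT signalling, on chromosome 6 from 148842492 to 148896257. Its levels were 143 and 240 CPM in the dorsal and 1290 and 15.8 CPM in the ventral proximal libraries. In the distal libraries they were 0, 0.872 and 1.83 CPM dorsally and 0, 0 and 0 ventrally, which is 5 counts in all. Distal and proximal libraries did not overlap, and 4 of the 6 middle libraries had no count, with 36.7 CPM in dorsal middle library 84. The edgeR adjusted p was 0.542, the DESeq2 adjusted p was 1.76e-07, and over the other alternatives the smallest adjusted p was 0.0705. Caprin2 was thus above 2 CPM in the 4 proximal libraries and in dorsal middle library 84 of the 16, while 11 of 14 pRPE libraries also held it, with a median of 30.8 CPM on the common scale.

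Pax2 was the one transcription factor of the stalk among these genes. Its levels were 0, 0 and 0 CPM in the dorsal distal and 8.61, 0.262 and 18.5 CPM in the ventral distal libraries, against 4.87 and 65.8 CPM in the dorsal and 317 and 74.0 CPM in the ventral proximal ones. The groups overlapped through dorsal proximal library 5, which lay below 2 of the ventral distal libraries. Middle libraries held 176 and 104 CPM dorsally and 29.4, 18.5, 655 and 0 CPM ventrally, so that their level was near the proximal one. The proximal mean was 25.4 times the distal mean (log2 fold change -5.49, edgeR adjusted p = 0.542, DESeq2 adjusted p = 0.0322). The ratio was 10.6 without ventral proximal library 40 and 65.1 without ventral distal library 88. Distal and middle OS did not differ past the test either (edgeR adjusted p = 0.551), nor did middle and proximal OS (edgeR adjusted p = 0.993). Of the pRPE libraries 2 of 14 had a count of Pax2. Pax2 (chromosome 19, 44746601 to 44838269) overlaps the antisense genes Gm20395 and 1700039E22Rik.

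**Figure D2:**
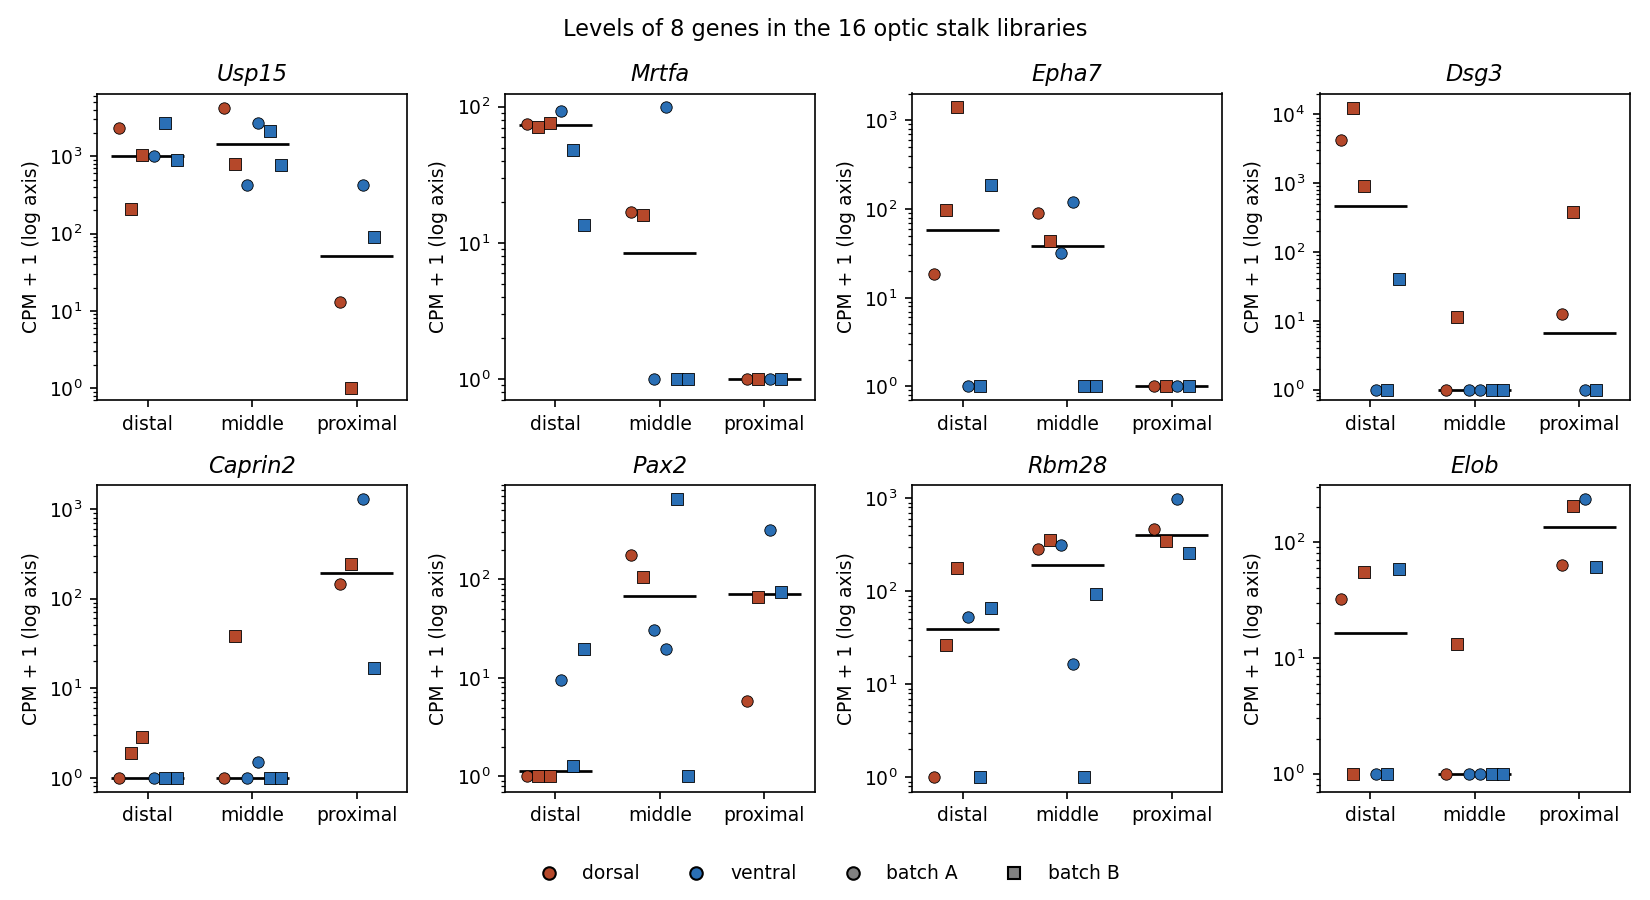
Levels of 8 genes as CPM + 1 on a logarithmic axis in the 16 OS libraries, by position. Points are libraries, coloured by side and shaped by batch, lines are medians, and a point at 1 is a library without a count. Usp15, Mrtfa, Epha7 and Dsg3 were higher in distal and Caprin2, Pax2, Rbm28 and Elob in proximal libraries, with only Mrtfa, Caprin2, Rbm28 and Elob free of overlap and no gene past the adjusted test.

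The other 8 genes lower in distal OS were mostly at or near 0 there and high in only part of the proximal libraries. The mitochondrial glutamate carrier gene Slc25a22 was counted in all 6 distal libraries but at no more than 3.95 CPM, against 201, 2.87, 0 and 284 CPM in the proximal ones. Middle libraries held up to 636 CPM of it. The proximal mean was 63.9 times the distal mean, or 35.6 times without ventral proximal library 90 (edgeR adjusted p = 0.542).

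Gm44503, a transcript that overlaps Ccpg1 and its neighbours, had no count in any distal library and 21.2 to 153 CPM in all 6 middle libraries. It was counted in 2 of 4 proximal libraries, at 20.6 and 389 CPM, and without ventral proximal library 40 the bound of its proximal over distal mean fell from at least 85.7-fold to at least 5.74-fold. The distal and middle libraries did not overlap for Gm44503 (edgeR adjusted p = 0.55 between them). Arl5c, Gm49085, Krba1, Gm42425 and Gm7542 had mean levels of 12.4 to 72.2 CPM in proximal and 0.155 to 3.26 CPM in distal OS. The zinc finger gene Zfp157 was at 800 CPM in 1 proximal library and at 218 and 234 CPM in 2 distal ones, so that its groups overlapped throughout.

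Whether any gene separated the groups completely was asked next, by counting genes for which all 6 distal levels lay above or below all 4 proximal ones. There were 3 genes wholly higher in distal OS (0.0599% of those tested), Mrtfa, Maco1 and Gm56975, and 8 wholly lower (0.160%). Of these 11 genes, only Mrtfa and Caprin2 were among the genes with an unadjusted p under 0.05. Maco1, a membrane protein known from neurons, was at 117 to 413 CPM in distal and at 0 to 102 CPM in proximal libraries, with 0 to 148 CPM in the middle.

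Among the wholly lower genes, Rbm28, a nucleolar RNA-binding protein, was at 464, 345, 984 and 255 CPM in the proximal libraries and at 0 to 179 CPM in the distal ones. Middle libraries spanned 0 to 356 CPM. Elob, a subunit of ubiquitin ligases and of the elongin complex, was at 62.8, 203, 236 and 60.6 CPM in proximal and at 0 to 58 CPM in distal libraries, and 5 of the 6 middle libraries had no count. The remaining 5 were Ttc24, the neuronal calcium-binding protein gene Cabp1, Gm37086, Gm15927 and A930007A09Rik. Gm15927 and Elob each overlap a gene on the opposite strand, Prpf31 and Srrm2.

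The middle OS did not lie between the ends for a large part of the genes. Of the 264 genes higher in distal OS at an unadjusted p under 0.05, the mean log2(CPM + 1) of the middle libraries lay between the ends for 177 and above both for 83. Of the 155 lower genes, it lay between for 93 and above both for 52. The middle mean was nearer to the distal mean for 173 of the 264 and nearer to the proximal mean for 104 of the 155. Over all 5012 genes it lay between the ends for 1736, above both for 2493 and below both for 783, and most of the genes chosen by p had no count at one end, below which the middle cannot lie.

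Libraries of one position were on average no more alike than libraries of different positions. Over the 5012 genes, which are no independent replicates, the mean Pearson correlation of log2(CPM + 1) was 0.397 among the 15 pairs of distal libraries, 0.418 among the 6 proximal pairs and 0.415 for the 24 pairs of a distal and a proximal library. A score was formed for each library as its mean correlation with the distal minus that with the proximal libraries, itself left out. The scores were 0.00832, -0.00308 and -0.00125 in the dorsal distal, -0.0321, -0.0304 and -0.0521 in the ventral distal and -0.00921, -0.00212, -0.00351 and 0.0043 in the proximal libraries. The distal minus proximal difference of the mean scores was -0.0158 and within the spread (exact permutation test over all 210 splits, two-sided, p = 0.486). It turned to 0.00791 with the number of detected genes removed from each gene (two-sided exact permutation p = 0.933). The 3 ventral distal libraries were less like the distal than like the proximal libraries. Middle libraries scored -0.0222 to 0.00374, within the range of the distal ones.

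**Figure D3:**
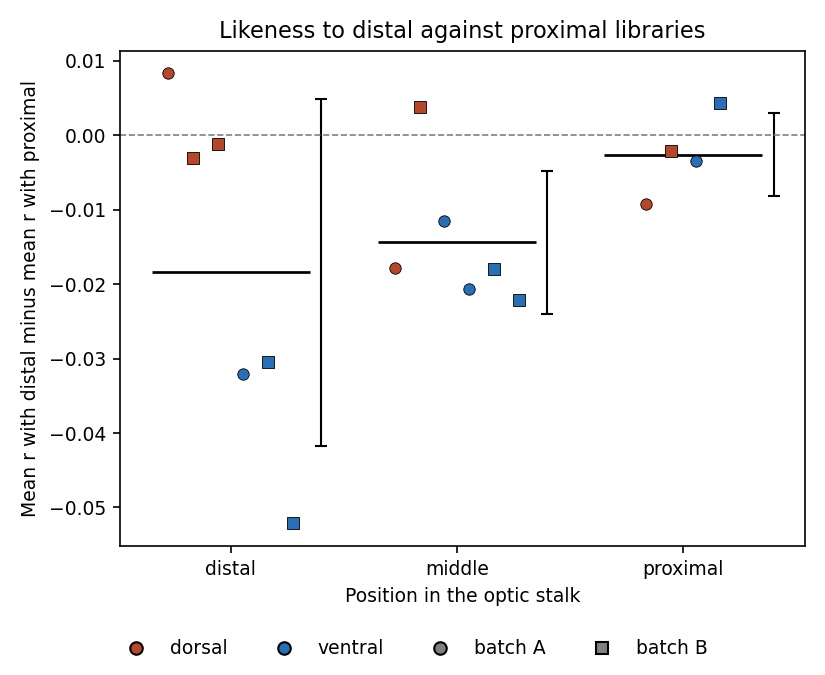
Mean correlation of each OS library with the distal libraries minus that with the proximal libraries, by position, on log2(CPM + 1) of 5012 genes. Points are libraries and the line and bar are the mean and SD, and the ventral distal libraries, from -0.0521 to -0.0304, lie below every middle and proximal library.

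Dorsal and ventral sides were also tested apart. Between dorsal distal and dorsal proximal OS edgeR called 0 genes, with 51 higher (1.02%) and 64 lower (1.28%) at an unadjusted p under 0.05. Between ventral distal and ventral proximal OS it called 0, with 28 higher (0.559%) and 105 lower (2.09%). The difference between both sides, an interaction term, had 0 calls and 282 genes at an unadjusted p under 0.05 (5.63%). Single libraries moved these counts. The 282 became 116, 117 and 149 without dorsal proximal libraries 5 and 65 and ventral proximal library 90, and 479 without ventral distal library 88. The ventral total of 133 became 75 without ventral distal library 68 and 254 without library 88, and the dorsal total of 115 became 76 without dorsal distal library 63. Of the 5012 genes tested, DESeq2 called 846, 774 and 904 in these tests. With 3 against 2 libraries a side, Pax2 had no count in the dorsal distal libraries (edgeR adjusted p = 0.724 against dorsal proximal) and was at no more than 18.5 CPM in the ventral distal ones (edgeR adjusted p = 0.89 against ventral proximal).

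Pigment epithelium genes were counted more often in the dorsal than in the ventral distal libraries, a difference of sides that was not tested here. Genes of any kind were also fewer there, with 2244, 1730 and 4853 detected genes in the ventral against 4158, 3505 and 6769 in the dorsal distal libraries, and their part in the difference was not tested. Of 18 listed pigment genes, 9 had no count in any OS library and 6 were tested. Between 4 and 7 of the 18 had a count in each dorsal distal library, 0 to 2 in each ventral distal library, 4 and 7 in the dorsal middle ones, 3 to 6 in the ventral middle ones, 5 and 6 in the dorsal proximal ones and 1 and 3 in the ventral proximal ones. None of the 6 tested genes had an unadjusted p under 0.05 along the axis, beside 5.27% higher and 3.09% lower of all genes, and the median distal minus proximal difference of mean log2(CPM + 1) was 0.86, against 0.31 over all genes. Medians of the other lists ran from -1.79 for stalk identity to 2.29 for cadherins and junctions, and 2.8 for the 1 tested blood gene.

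Mitf, the transcription factor that directs pigment cell fate, was at 57.3, 176 and 132 CPM in the dorsal distal libraries and had no count in the ventral distal ones. Dorsal proximal libraries held 40.6 and 3.19 CPM and ventral proximal ones no count. All 3 dorsal distal levels were thus above all proximal ones, while the groups as a whole overlapped (edgeR adjusted p = 0.696). Gpnmb, a glycoprotein of melanosomes, was at 183, 915 and 379 CPM dorsally and without a count ventrally in distal OS, and at 0.541, 170, 0 and 0 CPM in proximal OS. Its middle levels were 0 to 106 CPM.

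Slc45a2, a melanosome transporter, was at 0, 1540 and 363 CPM in the dorsal distal libraries and had no count in the ventral ones, but it also reached 1310 CPM in a ventral middle library. Tfec, a relative of Mitf, was counted in 5 of 6 distal and 3 of 4 proximal libraries, with its highest level, 1450 CPM, in ventral distal library 88. The ion channel gene Trpm1 was at 128, 1.74 and 204 CPM in the dorsal and at 431, 0 and 66.8 CPM in the ventral distal libraries, so that its highest OS level was ventral. Oca2, a melanosome protein gene, was at 0, 31 and 44.5 CPM dorsally and without a count ventrally in distal OS, and was highest in a ventral middle library, at 98.4 CPM. Otx2 was counted in 1 of the 16 libraries, dorsal distal library 83, at 81.7 CPM.

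Dsg3, a desmosomal cadherin and so a cell junction gene, falls outside the rule because it was counted in 7 of 16 libraries, and it was chosen after its values were seen. It was at 4200, 12600 and 900 CPM in the dorsal distal libraries, at 0, 0 and 39.1 CPM in the ventral distal ones, at 11.4 and 375 CPM in the dorsal proximal ones and without a count in the ventral proximal ones. Of the middle libraries 1 held it, at 10.3 CPM. The ratio of the distal to the proximal mean was 30.7 (log2 fold change 6.17, edgeR adjusted p = 0.542, DESeq2 adjusted p = 0.153), and against middle OS the adjusted edgeR p was 0.303. The ratio was 10.6 without dorsal distal library 63 and 782 without dorsal proximal library 65. Dsg3 was the single gene called between distal and proximal OS when the filter ran over all 30 libraries (edgeR adjusted p = 0.0348) or when the middle libraries were left out (edgeR adjusted p = 0.00091). In the pRPE 8 of 14 libraries held it, up to 8140 CPM on the common scale.

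Of the 17 listed cadherin and junction genes 6 were tested, and 2 of them, Cdh1 and Crb1, were higher in distal OS at an unadjusted p under 0.05, beside 5.27% of all genes. Cdh1, the epithelial cadherin, was at 106, 243 and 164 CPM in the dorsal distal libraries, at 0, 3.94 and 0 CPM in the ventral distal ones and at no more than 5.11 CPM in the proximal ones (edgeR adjusted p = 0.542). Crb1, an apical polarity protein, was at 39.5, 207 and 313 CPM dorsally and at 0, 0 and 67.6 CPM ventrally in distal OS and had no proximal count (edgeR adjusted p = 0.542). Its relative Crb2 was at 306, 19.2 and 88.4 CPM in the dorsal distal libraries and had no count in the ventral distal ones. In contrast Cdh3, the placental cadherin, was at 145 to 354 CPM in distal, 155 to 398 in middle and 160 to 364 CPM in proximal libraries and was the steadiest of these genes.

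**Figure D4:**
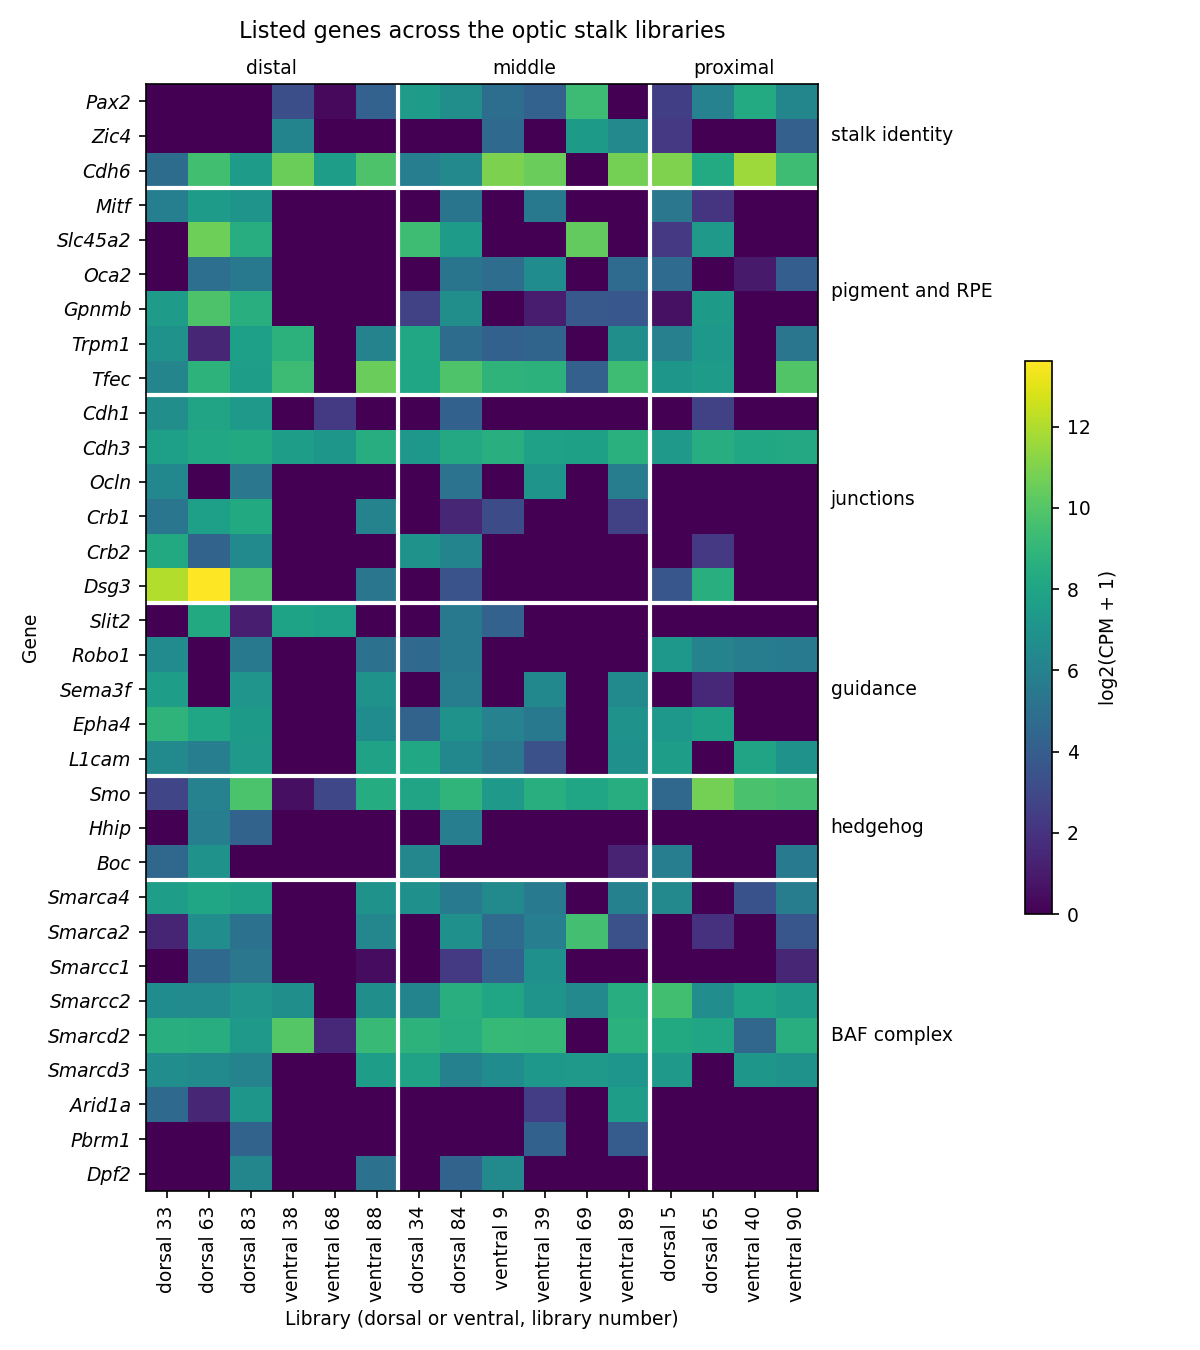
Levels of listed genes, with Dsg3, as log2(CPM + 1) in the 16 OS libraries, ordered by position and by side. Each row is a gene and each column a library named by side and library number, and the darkest colour is no count. Mitf, Gpnmb, Cdh1, Crb1, Crb2 and Dsg3 were counted in all 3 dorsal distal libraries, and Mitf, Gpnmb and Crb2 in none of the ventral distal ones.

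Among the genes of stalk identity, 7 of 14 had no count in any OS library and 3 were tested, Pax2, Zic4 and Cdh6. All 3 had a lower mean log2(CPM + 1) in distal than in proximal OS, with a median difference of -1.79 against 0.31 over all genes, and only Pax2 had an unadjusted p under 0.05, beside 3.09% lower of all genes. For Zic4, a zinc finger transcription factor, the mean CPM went the other way, 11.6 in distal and 5.14 in proximal OS, with a count in 1 distal library, at 69.3 CPM, and in 2 proximal ones, at 3.79 and 16.8 CPM. Cdh6, a cadherin of the stalk, was at 26.9 to 1520 CPM in distal and 319 to 3160 CPM in proximal libraries (edgeR adjusted p = 0.964). The stained transcription factors other than Pax2, Mitf and Otx2 gave little signal. Pax6 and Sox9 were without a count in all 16 libraries, which allows up to 3 counts in each by counting error alone, and Sox2 was never above 3.35 CPM. The paper detected Pax6 protein on both the dorsal and the ventral side of the OS at E12. The missing Pax6 counts, found in the pRPE libraries as well, can therefore not be read as absence.

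Of 12 listed glial and progenitor genes 4 were tested, and none passed the adjusted edgeR test. Vim, the intermediate filament of progenitors and astrocytes, was at 257 to 2190 CPM in distal and 1300 to 3100 CPM in proximal libraries (edgeR adjusted p = 0.549), and Id3 at 0 to 522 and 1.28 to 595 CPM. Slc1a3, a glutamate transporter of glia, was lower in distal OS before adjustment (edgeR adjusted p = 0.542), at 0 to 54.3 CPM against 248, 0, 1.01 and 23.6 CPM, so that 1 proximal library carried it.

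In the hedgehog list 4 of 12 genes were tested. The signal transducer Smo was at 0.478 to 868 CPM in distal and at 22.7, 1760, 824 and 741 CPM in proximal libraries (edgeR adjusted p = 0.544). Of the listed ligand and pathway genes of BMP and TGF-beta signalling 3 of 20 were tested, of WNT 5 of 17 and of FGF 2 of 13, and 0 of these 10 had an unadjusted p under 0.05, near the 5.27% higher and 3.09% lower of all genes. Fzd8, a WNT receptor, was at 202 to 316 CPM in the ventral distal libraries and at 0, 0 and 16.5 CPM in the dorsal distal ones.

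Axon guidance genes were tested for 5 of 19. Slit2, a repellent for retinal axons, was at 0, 308 and 1.22 CPM dorsally and at 236, 204 and 0 CPM ventrally in distal OS and had no proximal count (edgeR adjusted p = 0.542). Its receptor gene Robo1 was counted in all 4 proximal libraries, at 48.3 to 151 CPM, and in 3 of 6 distal ones, at 34 to 93.3 CPM (edgeR adjusted p = 0.885). The ligand was thus counted in distal and, at up to 44.2 CPM, in 2 middle libraries, and the receptor at both ends.

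Of 18 genes of the BAF chromatin remodelling complex, to which Smarcc1 belongs, 9 were tested and 0 had an unadjusted p under 0.05, beside 5.27% higher and 3.09% lower of all genes, a background near which 0 of 9 lies. Smarcc1 itself was at 0, 24.4 and 41.5 CPM in the dorsal distal, 0, 0 and 0.369 CPM in the ventral distal and 0, 0, 0 and 1.71 CPM in the proximal libraries. Smarcc2, the related scaffold subunit, was counted in 5 of 6 distal and 4 of 4 proximal libraries, at up to 138 and 730 CPM. Smarcd2 was counted in every distal and proximal library, from 1.84 to 1040 CPM.

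Of the 18 cell cycle genes 4 were tested. Top2a, needed to separate chromosomes, had no count in any distal library and was at 31.4 and 1.03 CPM in 2 of the 4 proximal ones (edgeR adjusted p = 0.542). Ccnd2, a cyclin of the start of the cycle, was at 0 to 1240 CPM in distal and 405 to 974 CPM in proximal libraries. Of the 14 ganglion cell and neuron genes 2 were tested, of 12 neural retina genes 1, and of the 14 eye field and 12 ventral forebrain genes none. Of those tested 0 had an unadjusted p under 0.05, and so few genes cannot be set against the share of all genes.

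Markers of mesenchyme and endothelium were counted at both ends of the stalk. The summed level of 15 mesenchyme genes was 0 to 306 CPM in distal and 4.80 to 476 CPM in proximal libraries, and that of 11 endothelial genes 0 to 539 and 0 to 227 CPM. The collagen gene Col1a2 was at 431 CPM in ventral proximal library 40, and the endothelial receptor gene Tek at 539 CPM in ventral distal library 68. The 11 blood genes summed to 0 to 94.9 CPM in distal libraries and had no count in proximal ones, with Hba-x, an embryonic globin, in 3 of 6 distal libraries (edgeR adjusted p = 0.542). In the mesenchyme and blood lists 8 genes each were at 0 in all 16 libraries, and in the endothelial list 8. Flt1, a VEGF receptor, was in no distal and 2 proximal libraries (edgeR adjusted p = 0.542). The part of these cells in the other differences was not tested.

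Widely expressed genes carry the limit of these libraries. Of 24 such genes 13 had no count in any OS library and 4 were tested. Gapdh was counted in 1 distal, 2 middle and 1 proximal library. Ywhaz, a 14-3-3 protein, was at 1900, 2100 and 1660 CPM dorsally and 0, 567 and 2270 CPM ventrally in distal OS and at 291, 143, 154 and 332 CPM in proximal OS (edgeR adjusted p = 0.542). A gene listed at 0 in a library can therefore not be read as absent from the tissue.

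Y-linked genes had more than 10 counts in distal libraries 33 and 38, middle libraries 34 and 39 and proximal library 40, which are all 5 OS libraries numbered from 31 to 40. Of these genes Uty was at 501 CPM in dorsal distal library 33, 344 CPM in dorsal middle library 34 and 1090 CPM in ventral proximal library 40, and at no more than 0.343 CPM elsewhere. Xist, transcribed from the inactive X chromosome, was counted in 3 distal and in no proximal library (edgeR adjusted p = 0.542) and lay at 125 CPM in library 33, which also held Uty. Its part in the other differences was not tested.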

How the data were processed

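The authors aligned the Geo-seq reads to GRCm38, using HISAT2 after FastQC, and their methods name StringTie for the quantification. They deposited estimated counts per gene symbol, without normalization. The step that gave counts, its use of strand and the annotation release are not given in the sources used here. The table held 56484 genes, of which 18716 had a count in an OS library, and 117 values that were not whole in these libraries were rounded.

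Genes with more than 10 counts in at least 3 of the 16 OS libraries were tested (5012). edgeR 4.0.16 in R 4.3.3 fitted TMM-normalized counts with position, dorsal-ventral side and batch as terms over all 16 libraries (11 residual degrees of freedom, common dispersion 6.82), and with 1 level per region for the dorsal, ventral and interaction tests. Calls needed a log2 fold change beyond 0.58 and a p under 0.05 after Benjamini-Hochberg adjustment. Alternatives used DESeq2 1.42.0, limma 3.58.1, other filters, scalings and models, single batches and leaving out each library. Library measures and scores were tested by exact permutation with scipy 1.17.1 (python 3.11.15). The edgeR step was tested on simulated data. Named genes were the called genes, of which there were none, the 10 genes a direction described in the text, the tested members of 20 gene lists and 6 stained transcription factors. One listed gene is not reported here. The similarity score was added after the data were seen. The members and lists were chosen with earlier results of these data known. Coordinates are those of RefSeq on GRCm38 and overlaps those of GENCODE. Total counts per library ranged from 1421918 to 5400977. Without molecular identifiers, limits of 3 counts cover counting error only.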

Additional observations from a re-analysis of the deposited data

Results flagged for a closer look

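In 27 groups of values, the 3 positions for each of 3 library measures, the similarity score and 5 genes, 5 had 1 library far from the others by Dixon's test, where chance marks about 1 group in 20. Dorsal distal library 33 had the highest total count of the distal libraries, 5400977. Dorsal middle library 84 had the highest number of detected genes of the middle libraries, 9315, and was also set apart by Caprin2, at 36.7 CPM, and by Dsg3, at 10.3 CPM, where it was the one middle library above 1 CPM. Ventral distal library 88 was set apart by the lowest Mrtfa level of the distal libraries, 12.6 CPM.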

How the results depend on the processing

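With DESeq2 in place of edgeR, 775 of the 5012 genes tested were called between distal and proximal OS, 311 between distal and middle and 732 between middle and proximal. It called 846 in the dorsal OS, 774 in the ventral OS and 904 for the difference between both sides. edgeR called 0 in each, and the cause of this gap was not tested. A single call arose in 6 other fits, 1 gene with limma voom between middle and proximal OS (Aebp1), 1 without a filter between distal and middle OS (Dsg3), 1 each between distal and proximal and between distal and middle OS with the filter over all 30 libraries (Dsg3 in both), 1 between distal and proximal OS without the middle libraries (Dsg3) and 1 within batch A (mt-Rnr2). All other settings, the replicate block of library numbers among them, gave 0 calls, as did leaving out each of the 10 distal and proximal libraries. With that block 273 genes had an unadjusted p under 0.05 between distal and proximal OS, against 419 without it. Beyond these fits the block was not used, since the labels tie no block to an embryo. Libraries of one block deviated from their region means with a mean correlation of 0.0386, from -0.0261 to 0.177 over 27 pairs. Between blocks of one batch the mean was -0.0381, so libraries of one block were on average more alike. All 5 OS libraries with more than 10 Y-linked counts were those numbered 31 to 40, and whether a block is an embryo was not tested. The 22 genes followed kept their direction in all 587 results for single genes under alternatives. Genes among them were chosen by p on these same counts, and several had no count at one end of the stalk. The kept direction is therefore no separate support.

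Among the library measures, the distal minus proximal difference of detected genes turned to -267.2 within the ventral OS and ranged from -13.8 to 994 over the fits without 1 library each, and without dorsal distal library 83 it was the -13.8. The difference of the mitochondrial share turned to 0.207 percentage points within batch B and ranged from -4.50 without dorsal proximal library 65 to -0.632 without ventral proximal library 40, against -2.91 with all libraries, and was -1.65, -1.59 and -4.47 without libraries 83, 88 and 90. That of total counts turned to -339070 within batch B and -106390 within the ventral OS and ranged from -76362 to 633360 without 1 library each, where leaving out dorsal distal library 33 gave the -76362. The similarity difference turned to 0.00791 with detected genes removed, a setting chosen after the data were seen. None of these passed its permutation test. TMMwsp moved the median log2 fold change of all genes by over 0.1 between middle and proximal OS, from 1.12 to 0.94, in the dorsal OS, from 0.85 to 0.62, and for the difference between both sides, from 0.96 to 0.67. Leaving out 1 library moved the dorsal median and that of the difference between both sides further, and was not run for middle against proximal OS. The dorsal one was 6.49 without library 5 and 0.197 without library 83, and that of the difference between both sides was 4.23, 4.40 and 0.24 without libraries 5, 88 and 83 and turned to -0.60 without library 90. Of the values of the tested genes, 50.1% in distal and 55.0% in proximal libraries were 0, and at this depth a low level and an absent transcript cannot be told apart.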
